A study of Zea mays with 4 samples.

Results

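Sites of ZmICE1a that lie near the centromeres of maize (Zea mays) were taken from CUT&Tag of endosperm, the tissue of the kernel that stores starch and protein. CUT&Tag uses an antibody to bring the Tn5 transposase to a DNA-bound protein, so that sequenced fragments collect around its sites. The study has 4 libraries, 2 of mutant and 2 of wild-type endosperm, all made with the ZmICE1a antibody. The labels name neither the mutant allele nor the age of the endosperm, and none of the libraries is described as made without that antibody. Its results are 2 peak lists, and the labels tie each list to the mutant and the wild-type library of 1 replicate. Each list held more fragments at its peaks in a treatment library than in a control library. The sources used here do not say which genotype served as treatment, so no value can be assigned to mutant or wild type.

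A shared region is a stretch where peaks of both lists overlap by at least 1 bp, placed by its list 1 summit, the base with the strongest signal. Regions with a summit within 20 Mb of an approximate centromere position were kept on chromosomes 1, 2, 4, 5, 6, 8, 9 and 10. This gave 584 pericentromeric regions of the 8752 on these 8 chromosomes and of the 11310 on chromosomes 1 to 10. The other 8168 regions of the same 8 chromosomes are called the rest. The members were chosen by position and not by strength. Coordinates are those of the B73 version 4 assembly. At the limit itself, the outermost pericentromeric region of each chromosome lay 19.7 to 19.9 Mb from the position and had list 1 folds of 3.85 to 12.3. The nearest region beyond it lay at 20.0 to 20.4 Mb, with list 1 folds of 3.39 to 11.4.

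ZmICE1a is a basic helix-loop-helix protein, a family whose members pair up and bind E-box motifs. In Arabidopsis, ICE1 is known as an activator of the CBF genes in the cold. Pericentromeres of maize are rich in retrotransposons and heterochromatin, have few genes and recombine little. Genes, gene density, mappable sequence and DNA motifs at the regions were not analysed here.

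Each region is described by values the authors deposited for its peaks and by fragment numbers solved from them. The fold enrichment is the authors' value at the summit, treatment over local control with 1 added to both. Treatment fragments are the whole number of fragments at the summit, and the control background is the number of control fragments expected there. At summits within 5 bp of each other, the treatment fragments of the lists differed by less than Poisson noise, with a chi-square per degree of freedom of 0.873 over 64 pericentromeric regions. Control fragments gave 0.454 over 36 of them. As a cautious choice, the lists were counted as 1 sample, although the labels name 2 replicates. No SD over replicates is given. Comparisons used the chromosome as the unit, with an exact two-sided sign-flip permutation test over 8 paired differences, adjusted over 7 results by the Benjamini-Hochberg method. Its smallest possible p is 0.00781, and it measures sameness over chromosomes of the same libraries, not over plants. A single result at that smallest p has an adjusted p of 0.0547 and cannot pass 0.05 alone.

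Pericentromeric regions were sparse. They had a density of 1.82 per Mb over 320 Mb, against 5.98 per Mb over the 1367 Mb of the rest. The windows made up 19.0% of the span of the 8 chromosomes and held 6.67% of the regions. The regions covered 0.139% of the pericentromeric sequence, against 0.481% of the rest. Density was lower near the centromere on 8 of 8 chromosomes, with a mean log2 ratio of -1.71 ± 0.34 (SD over n = 8 chromosomes), or 0.306 times the density of the rest. Its exact permutation p was 0.00781, the smallest possible, and its adjusted p was 0.0547. Without chromosome 10 the adjusted p was 0.0365, since 2 other results also reached the smallest p of 7 chromosomes there (exact permutation p = 0.0156), and without any other chromosome it was 0.109.

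The ratio of densities differed between chromosomes. Chromosome 1 had 61 pericentromeric regions and the lowest ratio, with 1.52 per Mb against 6.47 per Mb in its rest. Chromosomes 2 and 9 came next, with 63 regions each. Chromosome 4 had 66 regions and 1.65 per Mb, against 4.52 per Mb in its rest, which was the sparsest rest of the 8. Chromosomes 6, 8 and 5 had 69, 78 and 87 regions. Chromosome 10 had 97, the most, with 2.42 per Mb against 5.12 per Mb in its rest, a ratio of 0.473 compared with 0.236 on chromosome 1.

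Pooled over the 8 chromosomes, density was higher at each step away from the centromere position. The innermost 2 Mb on either side held 22 regions, or 0.688 per Mb (95% exact Poisson interval 0.431 to 1.04). From 2 to 5 Mb there were 64 regions (1.33 per Mb, 1.03 to 1.70), and from 5 to 10 Mb there were 134 (1.68 per Mb, 1.40 to 1.98). The next steps held 160 regions at 10 to 15 Mb (2.0 per Mb, 1.70 to 2.34) and 204 at 15 to 20 Mb (2.55 per Mb, 2.21 to 2.92). Outside the window the density went on increasing, through 2.84 per Mb at 20 to 30 Mb and 4.43 at 40 to 60 Mb, to 8.78 per Mb beyond 80 Mb. The inner 10 Mb held 220 regions and the outer 10 Mb of the windows 364, with fewer in the inner part on 8 of 8 chromosomes. In these pooled counts the limit of 20 Mb thus falls on a gradient and not on a step. Single chromosomes departed from it. On chromosome 8 the density was 5.4 per Mb at -25 to -20 Mb and 1.6 at -20 to -15 Mb (signed distance). On chromosome 2 it was 2.2 per Mb at 15 to 20 Mb and 0.8 at 20 to 25 Mb.

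**Figure D1:**
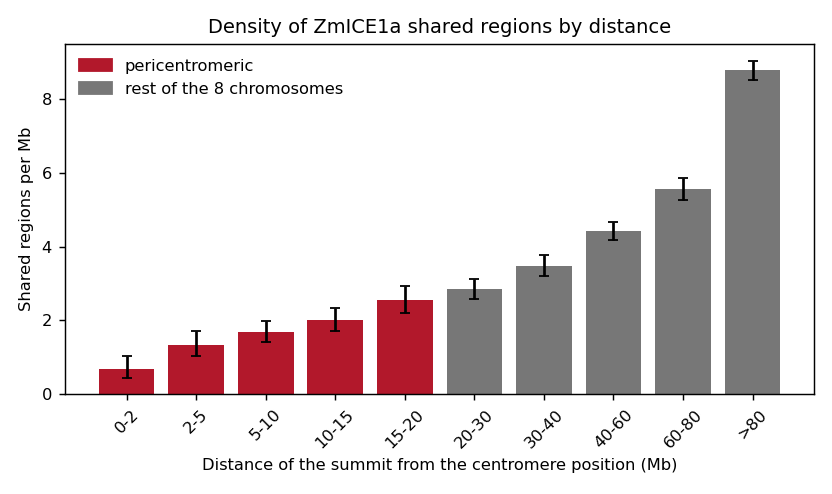
Shared regions per Mb (y axis) by distance of the summit from the centromere position in Mb (x axis), pooled over 8 chromosomes, with 95% exact Poisson intervals as bars on each column. Red columns are pericentromeric and grey ones the rest, and the density runs from 0.688 per Mb in the innermost step to 8.78 per Mb in the outermost.

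Some members lay very close to the assumed positions. On chromosome 6 a region at chr6:52000036-52000923 had its summit 0.355 kb from the position, though the position is approximate and given in whole Mb. It had 110 treatment fragments in list 1 (95% exact Poisson interval 90.4 to 133) and 89 in list 2 (71.5 to 110), with folds of 4.03 and 5.55. The nearest one on chromosome 8, chr8:50638866-50639589, lay 361 kb away and had 97 and 70 treatment fragments with folds of 5.82 and 5.53. On chromosome 4 it was chr4:108292091-108292630, at 708 kb, with 82 and 62 treatment fragments and folds of 3.54 and 2.45. These 3 regions had more fragments than the median region of the rest, which had 64 in list 1 and 53 in list 2.

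The nearest members of chromosomes 1 and 5 were among the regions with few fragments. The chromosome 1 region at chr1:137053264-137053872 lay 53.5 kb from the position and had 19 treatment fragments in list 1 (11.4 to 29.7) and 21 in list 2 (13.0 to 32.1), with folds of 6.51 and 4.45. The chromosome 5 region at chr5:105053712-105054187 lay 53.9 kb away and had 24 and 27, with folds of 5.35 and 4.05. The low control background of 1.05 and 4.0 fragments on chromosome 1, and of 2.1 and 6.0 on chromosome 5, accompanied folds close to the median.

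Farther out were the nearest members of chromosomes 10, 9 and 2. The region of chromosome 10 at chr10:50875825-50876516 lay 1124 kb from the position, with 38 treatment fragments in both lists and folds of 3.21 and 3.59. The nearest on chromosome 9, chr9:52621255-52621859, lay 1378 kb away and had the highest folds of the 8, 7.64 and 7.80, from 69 and 76 fragments. On chromosome 2 the nearest was chr2:94110698-94111201, at 1889 kb, with 89 and 81 fragments and folds of 3.27 and 3.32. Over these 8 regions the summits of the lists were 2 to 72 bp apart.

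The stretch without a shared region around the position varied widely in length. It was 5.58 Mb on chromosome 2, 4.79 Mb on chromosome 9, 3.55 Mb on chromosome 4 and 2.44 Mb on chromosome 10. On these 4 chromosomes it was also the longest empty stretch in the window. On chromosomes 8, 1 and 6 it was 1.48, 0.90 and 0.863 Mb, and on chromosome 5 it was 0.194 Mb. The sides of the position were unequal on some chromosomes: chromosome 5 had 59 regions on the low-coordinate side and 28 on the high-coordinate side, while chromosome 10 had 29 and 68, and chromosome 8 had 29 and 49. Over all 8 the sides held 272 and 312.

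**Figure D2:**
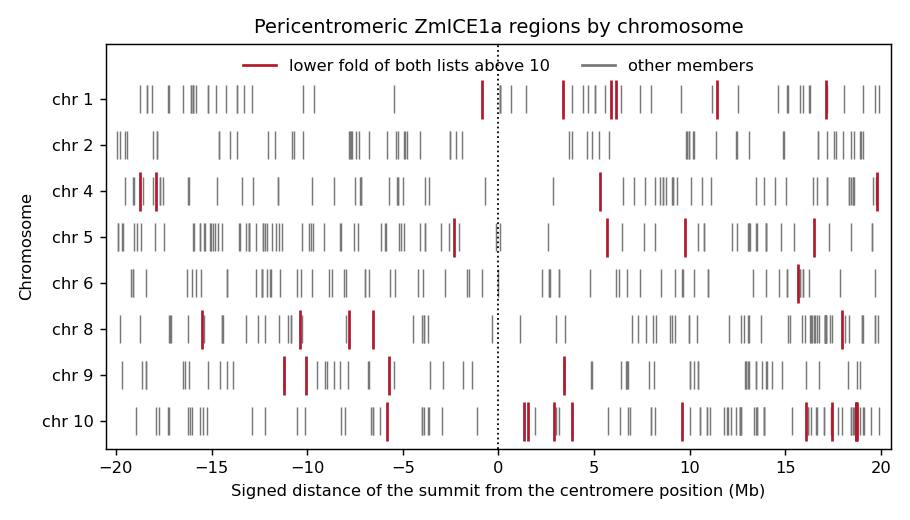
Each vertical line is 1 of the 584 pericentromeric regions, by signed distance of its summit from the centromere position in Mb (x axis) and by chromosome (y axis), with longer red lines for a fold above 10 in both lists. The dotted line is the centromere position, and 11 of the 35 red lines are on chromosome 10, which has 97 of the regions.

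Neighbouring members were far apart, with some close groups among them. The median step from 1 pericentromeric summit to the next was 280 kb over 576 steps, against 74.2 kb over 8152 steps in the rest. Steps over 1 Mb made up 17.9% (103 steps), against 1.78% (145) in the rest. Steps under 10 kb made up 12.5% (72), against 24.1% (1965). Joined by such short steps, 133 members (22.8%) formed 61 groups, of which 51 were pairs, 9 were triples and 1 had 4 regions. Lower density alone also makes short steps rarer, and no test of grouping was run.

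The group of 4 lay 17.0 Mb from the chromosome 8 position at chr8:68045435-68052990. Its regions had 73 to 191 treatment fragments in list 1 and 51 to 176 in list 2, with folds of 2.84 to 7.07 and 2.51 to 4.76. A triple lay a short way beyond it at chr8:68099627-68114921, with 84 to 92 and 63 to 73 fragments. The triple closest to a centromere position, on chromosome 1 at chr1:137053264-137056648, had 19 to 26 and 16 to 24 fragments. Of these 3 groups the one nearest a position was thus the weakest in fragments in both lists. These groups were picked after their values were seen.

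Where ZmICE1a regions did occur near centromeres, their fold was close to that elsewhere. Median folds were 5.26 in list 1 (quartiles 3.98 and 7.38), against 5.37 (4.05 and 7.33) in the rest, and 4.69 in list 2 (3.58 and 6.75), against 4.90 (3.68 and 6.63). Averaged over both lists and compared within chromosomes, the log2 fold differed by -0.050 ± 0.117 (SD, n = 8), lower on 6 of 8 chromosomes (exact permutation p = 0.273, adjusted 0.383). The median fold was lower in both lists on 4 of 8 chromosomes. The largest averaged differences were -0.19 on chromosome 5 and 0.18 on chromosome 10. With a window of 10 Mb the mean difference was 0.0082, so its sign was not stable. Without chromosome 10 it was -0.082, lower on 6 of 7 chromosomes (exact permutation p = 0.0469, adjusted 0.0656), and with other chromosomes left out it came as close to 0 as -0.029.

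Treatment fragments had slightly higher medians at pericentromeric summits. The median was 69.5 in list 1 (interquartile range 45 to 100), against 64 (43 to 99) in the rest, and 59 in list 2 (38 to 86), against 53 (35 to 83). The groups overlapped almost wholly: 55.5% of pericentromeric regions reached the list 1 median of the rest, against 50.9% of the rest itself. Averaged over both lists, the mean log2 difference within chromosomes was 0.14 ± 0.15 (SD, n = 8), higher on 7 of 8, or 1.10 times (exact permutation p = 0.0234, adjusted 0.0820). The median was higher in both lists on 5 of 8 chromosomes, and each list alone was higher on 6 of 8. The averaged difference did not pass after adjustment with all chromosomes. Without chromosome 10 it did (log2 difference 0.16, adjusted p = 0.0365 in the exact permutation test). Chromosome 10 was the only one with a lower averaged value. Without it all 7 differences had 1 sign, which fixes the p at its smallest possible, so this pass is no separate support. With a window of 30 Mb the log2 difference was 0.036, higher on 4 of 8. With the centromere positions moved by +5 Mb it was 0.055, higher on 3 of 8, and moved by -5 Mb it was 0.11, higher on 6 of 8.

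The control background differed in the same direction as the treatment. Its median was 7.53 fragments in list 1, against 7.0 in the rest, and 11.7 in list 2, against 10.0. The mean log2 difference was 0.16 ± 0.26 (SD, n = 8), higher on 7 of 8 chromosomes (exact permutation p = 0.125, adjusted 0.219). Without chromosome 10 it was 0.24 (exact permutation p = 0.0156, the smallest possible, adjusted 0.0365). With a window of 10 Mb it was 0.024, higher on 4 of 8, and with positions moved by +5 Mb it was 0.033. With positions moved by -5 Mb it was 0.21, higher on 7 of 8 (exact permutation p = 0.0234, adjusted 0.0547). Averaged over both lists, chromosome 10 was the 1 chromosome lower near the centromere in both fragment measures. Its log2 differences were -0.39 in control and -0.014 in treatment. The treatment difference is close to none, next to 0.011 on chromosome 2. In list 1 alone, chromosome 1 was also lower in control (6.65 against 7.0) and chromosome 6 in treatment (62 against 64). The call for each measure turned on leaving out chromosome 10, after which all averaged differences had 1 sign.

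Chromosomes 5 and 10 mark the ends of this range. On chromosome 5 the pericentromeric median was 85 treatment fragments in list 1 and 64 in list 2, against 63 and 52 in its rest. The control there was 9.0 and 16.0, against 7.0 and 10.0, and the fold was 4.82 and 4.11, against 5.33 and 4.87. On chromosome 10 the treatment medians were 63 and 51, against 63 and 52 in its rest, while the control was 5.0 and 7.0, against 6.30 and 9.60. Its pericentromeric fold was 6.10 and 5.54, against 5.40 and 4.88. High control thus went with low fold on chromosome 5, and low control with high fold on chromosome 10, which the fold contains by construction.

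**Figure D3:**
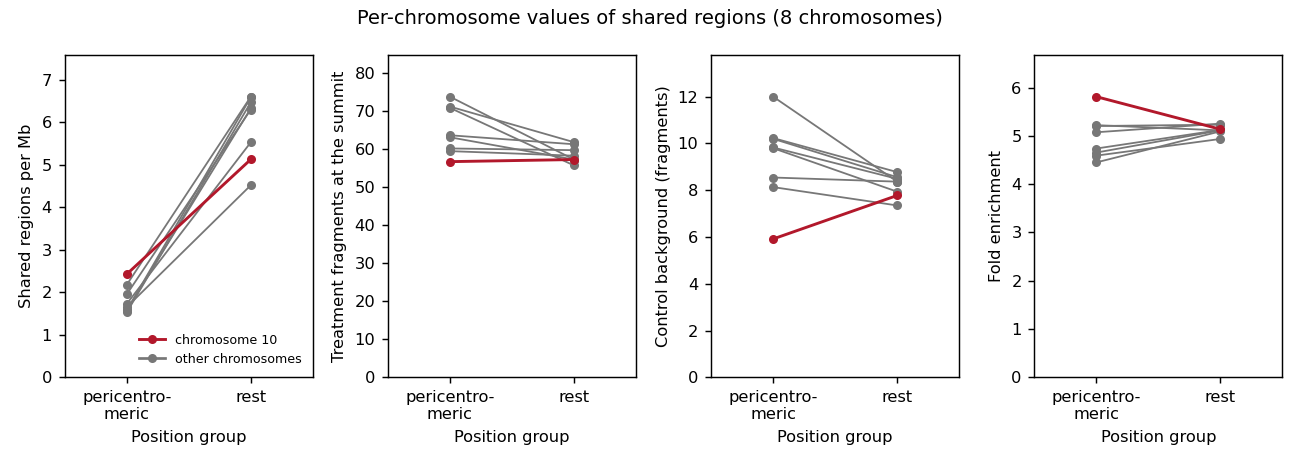
Pericentromeric (left) and rest (right) values of 8 chromosomes: regions per Mb, then the median treatment fragments, control background and fold enrichment (geometric mean of the medians of both lists), each on the y axis of its panel, with lines joining values of 1 chromosome. Chromosome 10, in red, was the 1 chromosome where the control background was lower near the centromere.

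In classes by fragment number, the folds were close in the lowest and highest class and lower near centromeres in the middle classes. Among regions with at most 79 treatment fragments (both lists summed), 132 pericentromeric ones had median folds of 6.10 and 5.54, against 5.97 and 5.44 in the rest. Among those with more than 182, 154 pericentromeric ones had 4.67 and 4.38, against 4.68 and 4.44. Above 79 and up to 118 fragments, 133 pericentromeric regions had 5.41 and 4.49, against 5.49 and 4.88. Above 118 and up to 182, 165 pericentromeric regions had 4.78 and 4.50, against 5.30 and 4.79. The folds were furthest apart above 118 and up to 182 fragments in list 1, and above 79 and up to 118 in list 2. The class above 118 and up to 182 fragments held 28.3% of pericentromeric regions, against 24.8% of the rest.

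High folds made up a larger share of the regions near centromeres than elsewhere, but unevenly so over chromosomes. A fold above 10 in both lists was seen in 35 of 584 pericentromeric regions (5.99%, 95% exact binomial interval 4.21 to 8.24), against 283 of 8168 in the rest (3.46%, 3.08 to 3.88) and 3.63% of all regions of the 8 chromosomes. The share was higher on 6 of 8 chromosomes, by 2.32 ± 3.22 percentage points (SD, n = 8), and did not pass an exact sign-flip permutation test that was added after the values were seen (p = 0.0781). Chromosome 10 alone gave 11 of the 35, or 11.3% of its 97 regions, against 3.70% of its rest. Without it the shares were 4.93% and 3.45%, the mean difference was 1.55 points and the exact permutation p was 0.156. Chromosome 2 had none of the 35 among its 63 regions, against 32 of 1346 (2.38%) in its rest. At so low a share, a count of none among so few regions says little. The share also varied with distance inside the window. It was lowest at 10 to 15 Mb, 2.5% (4 of 160), and highest within 2 Mb, 13.6% (3 of 22). The other steps had 6.37 to 7.81%. No pericentromeric region had a fold above 20 in both lists (0 of 584, which allows a share of up to 0.630%). In the rest it was 5 of 8168 (0.0612%), a share within that limit.

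The 35 strong regions had few control fragments rather than many treatment fragments. Their medians were 74 and 59 treatment fragments, against 69 and 59 in the other 549 members. Their control background was 2.45 and 3.0, against 8.0 and 12.0. Since a fold is treatment over control, this is a description of the choice. A control at the caller's genome-wide background, its lowest value, occurred in 15 pericentromeric regions in list 1 (2.57%, against 1.63% of all regions) and in 4 in list 2 (0.685%, against 0.743%). The share of all regions lay within the exact binomial interval of the pericentromeric share in both lists (1.44 to 4.20% in list 1 and 0.187 to 1.74% in list 2).

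Among single members, the highest lower fold was at chr10:53319676-53320366, 1.32 Mb from the position of chromosome 10. It had 44 treatment fragments in list 1 (32.0 to 59.1) and 40 in list 2 (28.6 to 54.5) over a control of 1.0 and 1.03, with folds of 14.8 and 20.4, and ranked 40 among the 8752 regions. On chromosome 8, chr8:35522341-35523391 had folds of 14.5 and 17.7 from 88 and 69 fragments. Another region of this kind, chr8:44426687-44427978, had 20.7 and 14.5 from 126 and 107 fragments. The widest of the 10, chr8:40630054-40632213, spanned 2160 bp and had the highest list 1 fold of any pericentromeric region, 31.8 from 133 fragments. Its list 2 fold was 12.7 from 102 fragments, since the control was 1.75 in list 1 and 7.20 in list 2. In unscaled fragments the lists thus differed more in the control than in the treatment at this region. The list 2 control was also higher over all members, with medians of 11.7 against 7.53.

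On chromosome 4 the strongest members were chr4:114309275-114310020, with folds of 14.1 and 19.1 from 42 and 37 fragments, and chr4:90258999-90260745, with 17.6 and 14.0 from 92 and 82. Chromosome 1 had 3 of the 10. The first, chr1:136153564-136154552, lay 846 kb from the position and had folds of 18.6 and 14.0 from 87 and 68 fragments. The others were chr1:148409230-148409830, with 13.5 and 13.4, and chr1:154144374-154145369, with 13.7 and 13.0. The last of the 10 was chr10:61583141-61584003, with 14.2 and 13.1 from 34 and 25 fragments, and its list 1 control was at the genome-wide background. Over the 10 regions the control was at most 3.0 fragments in list 1 and 7.20 in list 2.

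Members with the most treatment fragments were other regions, with high control as well. The first was chr2:114012263-114013726, 18.0 Mb from the position, with 287 fragments in list 1 (255 to 322) and 253 in list 2 (223 to 286). It ranked 18 of 8752 by fragments and 7961 by lower fold, with folds of 2.88 and 2.77 over a control of 64.0 and 92.0. Next were chr4:97459796-97460871, with 281 and 231 fragments and folds of 2.91 and 2.45, and chr2:105975266-105976718, with 263 and 229 and folds of 4.09 and 4.57. The remaining ones were chr4:118103140-118104270, with 243 and 223, and chr4:116656478-116658192, with 228 and 215. None of these 5 had a fold above 5.05 in either list. Of the 100 regions of the 8 chromosomes with the most fragments, 4 were pericentromeric, and of the 100 with the highest lower fold, 9 were, against 6.67% of all regions.

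**Figure D4:**
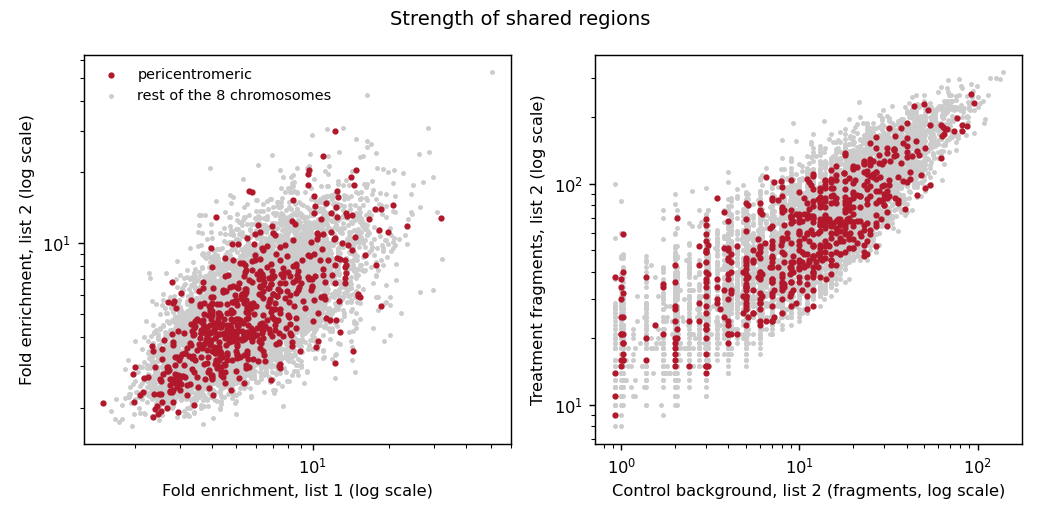
Left, fold enrichment in list 1 (x axis) and list 2 (y axis); right, control background (x axis) and treatment fragments (y axis) at list 2 summits, all on log scales, with pericentromeric regions in red over the rest in grey. Red points lie within the cloud of grey ones in both panels. None of the 584 red points has a fold above 20 in both lists, against 5 of 8168 grey ones.

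No difference in width between pericentromeric and other regions passed the test. The pericentromeric median length was 696 bp (interquartile range 535 to 879), against 709 bp (554 to 938) in the rest, and the mean log2 difference within chromosomes was -0.0090 ± 0.100 (SD, n = 8), lower on 4 of 8 (exact permutation p = 0.805, adjusted 0.805). The longest was 2290 bp among the 584 pericentromeric regions, against 4171 bp among the 8168 of the rest. A larger group is likelier to hold a longer extreme. The widest member, chr2:90767512-90769801, joined 3 peaks, its lists placed the summit 1201 bp apart, and its folds were 4.33 and 3.46. Next but one in width, chr9:70764978-70767090, had folds of 7.38 and 4.13 over 2113 bp. More than 1 peak of a list was joined in 13 pericentromeric regions (2.23%), against 3.0% of the rest.

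The share of sites found again in the other list was slightly lower near centromeres, and the difference did not pass the test. Of the list 1 peaks with a pericentromeric summit, 590 of 746 had a list 2 partner (79.1%, exact binomial interval at 95% of 76.0 to 82.0), against 8316 of 10403 in the rest (79.9%, 79.2 to 80.7). For list 2 it was 591 of 950 (62.2%, 59.0 to 65.3), against 8279 of 12527 (66.1%, 65.3 to 66.9). The mean of both shares differed by -2.06 ± 3.12 percentage points within chromosomes (SD, n = 8), lower on 6 of 8 (exact permutation p = 0.0703, adjusted 0.164). With a reciprocal overlap of 50% the difference was -0.21 points, higher on 5 of 8 chromosomes (exact permutation p = 0.891, adjusted 0.984). With all centromere positions moved by -5 Mb it was -2.72 points, lower on 8 of 8 (adjusted exact permutation p = 0.0273), and moved by +5 Mb it was -1.01 points, higher on 3 of 8 (adjusted p = 0.859). The shares on chromosomes 1 and 6 were furthest below, by -7.72 and -5.95 points.

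Peaks of 1 list alone were sparser near centromeres too, and had fewer fragments than paired ones. List 1 had 156 unpaired pericentromeric peaks, or 0.487 per Mb, against 1.53 per Mb in the rest, and list 2 had 359, or 1.12 per Mb, against 3.11. Their median treatment fragments were 30.5 and 26, against 30 and 24 for unpaired peaks of the rest. Paired pericentromeric peaks had 69.5 and 59. The lower density near centromeres was thus not limited to shared regions.

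The agreement between the lists at shared regions was similar in value near centromeres and elsewhere. Summits were a median of 37 bp apart, against 36 bp in the rest, and 82.7% were within 100 bp, against 80.6%. Both folds lay within 1.5 times of each other at 74.1%, against 73.9%. The absolute log2 ratio of the folds had a median of 0.36, against 0.34, and differed by 0.020 ± 0.055 within chromosomes (SD, n = 8; exact permutation p = 0.367, adjusted 0.428). As a description across 584 regions, which share their libraries and control, the Spearman rho between lists was 0.686 for the fold, 0.957 for treatment fragments and 0.909 for the control, against 0.640, 0.953 and 0.90 in the rest.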

How the data were processed

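The authors deposited 2 peak lists. Per the submitters' processing notes, the tools were MACS2 2.1.0, SAMtools 1.12, Bowtie2 2.4.1 and fastp 0.23.1. Their settings are not given in the sources used here. The build is read from contig names in the deposited lists. Each deposited peak has a position, a summit, a score, a fold enrichment (a linear ratio) and the −log10 of p and q. For all peaks, whole treatment fragments (up to 1000) and a control background that give both the listed fold and p (within 0.001 in −log10 p) were solved for, in 100% of peaks. This needed the list 1 treatment scaled by 0.650 and the list 2 control scaled by 0.986, so the treatment libraries were 1.54 and 0.986 times as deep as their controls. Total depth is unknown. Control values are in fragments of each control library. The window was ±20 Mb, and chromosome span ended at the last peak.

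For regions joining several peaks of a list, the widest gave the values. Differences are pericentromeric minus rest, of medians of log2 values averaged over both lists (density: log2 ratio; shares: percentage points). Solver and test were tested on simulated data. Intervals cover counting error only. Regions named are, by rule, the member nearest each position, the 10 highest by lower fold, the 5 with most treatment fragments and the 3 widest. The members and rules were chosen with earlier results of these data known. Chromosomes 3 and 7, contigs, sequences and genes were not analysed here. Python 3.11.15, numpy 2.4.6, scipy 1.17.1, pandas 2.3.3 and matplotlib 3.10.9 were used. Other windows, rests, thresholds, overlaps, summits, means, ratios and single lists were tried.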

Additional observations from a re-analysis of the deposited data

How the results depend on the processing

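The lower density near centromeres kept its sign in 18 of 18 alternatives, and its p was the smallest possible in each. Its adjusted p from the exact permutation test passed 0.05 in 4 of them: with 1 list alone, where 6 results were tested (log2 ratio of -1.71 in list 1 and -1.63 in list 2, adjusted p = 0.0469 each), with positions moved by -5 Mb (-1.71, 0.0273) and without chromosome 10 (0.0365). Without any other chromosome it was 0.109. Leaving out chromosomes in turn gave -1.80 to -1.65. The share of peaks found in the other list passed with positions moved by -5 Mb (-2.72 points) and in no other setting: it was -1.01 with +5 Mb, -0.21 with a reciprocal overlap of 50%, -0.62 for list 1 and -3.51 for list 2 alone, -3.71 with a window of 10 Mb, and -2.51 to -1.26 over left-out chromosomes. Treatment fragments and control background passed without chromosome 10 and in no other setting. Averaged over both lists, chromosome 10 was the only one lower in either. Leaving it out thus fixed their p at the smallest possible. Over left-out chromosomes treatment ran from 0.11 to 0.16 and control from 0.11 to 0.24. Treatment was 0.036 with a window of 30 Mb, 0.055 with +5 Mb, 0.11 with -5 Mb and 0.069 with means. Control was 0.024 with 10 Mb, 0.033 with +5 Mb and 0.21 with -5 Mb. Changes of sign were seen in 3 results that had not passed. The fold was -0.082 to -0.029 over left-out chromosomes and -0.078 with -5 Mb, and turned to 0.0082 with a window of 10 Mb, the difference of folds between lists to -0.0048 with 10 Mb and -0.0084 with 30 Mb, and region length ran from -0.025 to 0.011 over left-out chromosomes and was -0.042 in list 2 alone. The cause was not tested. Moved positions were chosen after seeing the data. No paired analysis was possible because each list joins libraries of both genotypes and the lists carry no per-library values. A single list gives no difference between lists, and alternatives that need a genome were not run.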
